A study of Mus musculus with 10 samples.

Results

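Enpp3, Nt5e, Slc28a1, Slc28a2, Ada, Pnp and Xdh form a chain that takes nucleotides and nucleosides apart at the surface of the villus and inside its absorptive cells. They were chosen by name, as 7 genes of 22180 measured, each read by the single probe set that the platform annotation assigns to it alone. At the brush border, the ectoenzymes of this chain cut nucleotides down to nucleosides, concentrative transporters carry the nucleosides into the cell with sodium, and cytosolic enzymes turn adenosine into inosine, inosine into hypoxanthine and hypoxanthine into urate. In the mouse small intestine, purine-handling genes such as Nt5e, Ada and Slc28a2 are known as genes of enterocytes near the villus tip. The arrays read RNA of a whole piece of gut, so no position along the villus was measured here.

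The series compared jejunum of female mice of 10 to 12 weeks on 10 arrays, 5 of Pcyt1a knockouts, numbered 1 to 5, and 5 of controls, numbered 6 to 10. Knockouts were Pcyt1aLoxP/LoxP;VilCreERT2 and controls Pcyt1aLoxP/LoxP, so both carried the floxed alleles and the knockouts alone carried the tamoxifen-activated Cre, which the villin promoter directs to gut epithelium. Tamoxifen was given to both groups over 5 days, followed by 4 days of high fat food and an overnight fast, although the series text also speaks of re-feeding. Cells of the 3 cm piece that do not use the villin promoter keep Pcyt1a, the gene for the rate-limiting enzyme of phosphatidylcholine synthesis from choline.

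On the log2 intensity scale, Pcyt1a averaged 7.46 ± 0.25 in knockouts and 9.39 ± 0.17 in controls (± SD, 5 arrays per group), and the groups did not overlap. Arrays stood apart within both groups: Knockout 2 and Control 6 had the lowest scores of 8 measured Paneth cell markers, at -1.38 and -1.47 relative to the mean of all arrays, against -0.76 to 1.01 on the other arrays. A score here is the mean log2 intensity of a list's measured markers. Smooth muscle markers were highest on Knockout 1, Control 7 and Control 9. The 15 measured enterocyte markers each averaged at least 10.06, on arrays whose median lay between 5.77 and 5.89, and their score averaged 12.36 ± 0.12 over the knockouts and 12.45 ± 0.09 over the controls (± SD, 5 arrays per group). The labels do not say whether each array had its own mouse, and p-values cover only the variation among these arrays, which may be technical.

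Enpp3, Slc28a1, Slc28a2, Ada and Xdh were highest, within each group, on the same arrays, Knockout 2 and Control 6, and the promoters of the 4 of them with a window are shown. Each sequence is a RefSeq window of GRCm38.p6 from 250 bases before to 50 after an annotated start, printed 5′ to 3′ on the gene's strand. Capitals mark matches to the short motifs described after the sequences. For Slc28a1 the gene record begins at base 81113269, before the window, so no bases ahead of that record were searched. For Slc28a2 it begins at base 122426357, inside the window, and distances are counted from the start that the window uses.

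Slc28a2 (chr2:122426185-122426484, plus strand): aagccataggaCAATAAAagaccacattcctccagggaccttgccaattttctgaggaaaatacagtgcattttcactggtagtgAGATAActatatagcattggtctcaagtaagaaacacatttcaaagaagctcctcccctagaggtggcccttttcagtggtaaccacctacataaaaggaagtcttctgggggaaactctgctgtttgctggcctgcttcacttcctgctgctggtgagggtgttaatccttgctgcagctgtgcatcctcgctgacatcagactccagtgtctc

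Enpp3 (chr10:24836146-24836445, minus strand): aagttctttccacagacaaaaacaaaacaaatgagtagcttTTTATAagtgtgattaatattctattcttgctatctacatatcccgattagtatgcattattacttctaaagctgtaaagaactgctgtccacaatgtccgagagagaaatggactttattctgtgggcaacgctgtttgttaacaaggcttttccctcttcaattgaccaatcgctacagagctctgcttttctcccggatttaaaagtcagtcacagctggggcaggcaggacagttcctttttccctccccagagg

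Ada (chr2:163750190-163750489, minus strand): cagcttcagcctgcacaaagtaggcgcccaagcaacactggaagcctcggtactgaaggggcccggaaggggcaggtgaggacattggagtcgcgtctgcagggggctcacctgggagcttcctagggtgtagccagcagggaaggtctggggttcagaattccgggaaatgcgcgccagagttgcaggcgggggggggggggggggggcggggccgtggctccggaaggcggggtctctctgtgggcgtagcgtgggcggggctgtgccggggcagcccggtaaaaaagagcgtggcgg

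Slc28a1 (chr7:81114549-81114848, plus strand): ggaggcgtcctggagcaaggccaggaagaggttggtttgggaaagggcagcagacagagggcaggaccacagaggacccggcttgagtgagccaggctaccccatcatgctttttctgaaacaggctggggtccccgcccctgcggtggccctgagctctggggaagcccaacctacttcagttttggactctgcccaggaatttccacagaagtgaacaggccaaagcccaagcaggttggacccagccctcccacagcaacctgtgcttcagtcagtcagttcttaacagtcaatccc

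A window was found for 6 of the 7 genes, all except Xdh. All windows were searched on both strands for 5 motifs, given by their letters. Factors of the Gata family are known for AGATAA. Factors of the Cdx family are known for TTTATNG, and Hnf4 factors for CAAAGTC. The basic helix-loop-helix factors are known for CACGTG, and the core promoter box for TATAAA. The Slc28a2 window held AGATAA 165 bases before the start and TTTATNG, read on the opposite strand, 239 bases before it, with no overlap between them. The Enpp3 window held TATAAA on the opposite strand 209 bases before the start. Of all 32851 windows, 11.2% held AGATAA and 10.9% held TTTATNG. The share of windows was 13.6% for TATAAA, 7.15% for the helix-loop-helix motif and 4.44% for the Hnf4 motif. The windows of Ada, Slc28a1, Nt5e and Pnp held none of these motifs. G and C made up 68.0% of the bases in the Ada window and 71.0% in that of Nt5e, beside 58.7% for Slc28a1, 46.7% for Slc28a2 and 40.7% for Enpp3.

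Loss of Pcyt1a from the epithelium was not accompanied by a change that passed the test in any of the 7 genes. None was called by limma at an adjusted p under 0.05 over all 22180 genes, where 0.0271% of genes were called. At an unadjusted p under 0.05 there were 0 of 7 genes, against 13.9% of all genes. All 7 had overlapping groups, while 2.6% of all genes had groups that did not overlap. Of the 7 differences 5 were negative and 2 positive, where 53.2% of all genes had a negative one, with a median log2 fold change (knockout minus control) of -0.22, beside -0.01 over all genes. The median of the 7 stayed negative under the 23 alternative settings but moved by over 1.5 times under several of them, to -0.34 without Knockout 2, -0.12 without Control 6, -0.13 without Knockout 1, -0.14 without Knockout 3, -0.09 with the Paneth cell score as a covariate and -0.07 with the enterocyte score. The 95% intervals of all 7 included 0 and ran from -1.02, the lower bound for Nt5e, to 0.57, the upper bound for Enpp3.

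Enpp3 (probe set 17239817), an ectoenzyme that cuts extracellular nucleotides to their monophosphates, had log2 intensities of 12.67, 13.16, 12.46, 12.88 and 12.58 in knockouts 1 to 5, against 13.13, 12.68, 13.07, 12.24 and 12.08 in controls 6 to 10. Of the knockouts 4 lay within the range of the controls, and Controls 9 and 10 were the lowest of all arrays. Knockouts minus controls gave 0.11 log2 units (SE 0.21, limma adjusted p = 0.858), which is a 1.08-fold level with a 95% interval of 0.784 to 1.49. It moved with single arrays, being 0.23 without Control 6, 0.0075 without Knockout 2 and -0.03 without Control 10.

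Nt5e (probe set 17520073), also known as CD73, makes adenosine from AMP outside the cell. Its log2 intensities were 8.34, 9.86, 9.28, 9.56 and 9.61 in knockouts, against 9.42, 9.34, 9.35, 10.35 and 10.15 in controls. Knockout 1 stood well below every other array, and Controls 9 and 10, which were lowest for Enpp3, were highest for Nt5e. Its difference was -0.39 log2 units (SE 0.29, limma adjusted p = 0.584), and it was -0.06 without the 3 arrays highest in smooth muscle markers, -0.14 without Knockout 1 and -0.235 without Control 9. Its within-group SD of 0.54 exceeded that of 97.4% of the 1221 genes within 0.5 log2 units of its mean intensity.

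**Figure D1:**
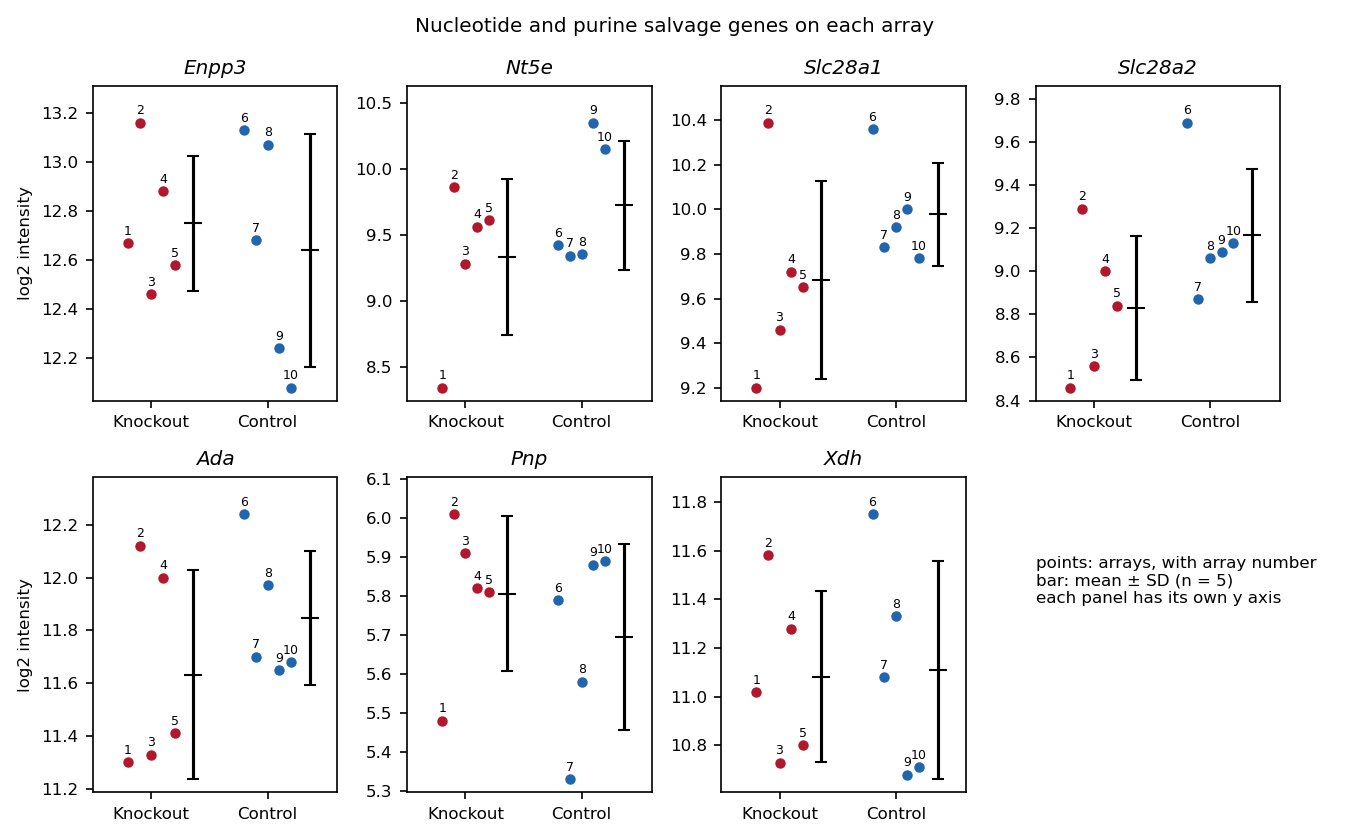
Log2 intensity (y axis, scaled separately in each panel) of the 7 genes on the 5 Knockout arrays and 5 Control arrays, with array numbers above the points and mean ± SD bars. The groups overlap in every panel, Knockout 2 is the highest knockout in all 7, and Control 6 is the highest control in 5.

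Slc28a1 (probe set 17479647), the concentrative transporter that prefers pyrimidine nucleosides, had log2 intensities of 9.20, 10.39, 9.46, 9.72 and 9.65 in knockouts, against 10.36, 9.83, 9.92, 10.00 and 9.78 in controls. Knockout 2 lay above every control, and the 4 other knockouts lay below every control. Over all arrays the difference was -0.29 log2 units (SE 0.19, limma adjusted p = 0.535), a 0.816-fold level with a 95% interval of 0.608 to 1.09. Without Knockout 2 it was -0.47 (SE 0.14, limma adjusted p = 0.124). That every knockout left then lay below every control restates the values above and is no further result. Of all genes, 2.0% had this order without Knockout 2. Without Knockout 1 the difference was -0.17 (SE 0.19). Slc28a1 was not among the 452 genes (2.04%) called without Knockout 2.

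Slc28a2 (probe set 17375454), the transporter that prefers purine nucleosides and whose promoter is printed above, had log2 intensities of 8.46, 9.29, 8.56, 9.00 and 8.84 in knockouts, against 9.69, 8.87, 9.06, 9.09 and 9.13 in controls. Of the knockouts 3 lay below every control, and none lay above them all. Its difference of -0.34 log2 units (SE 0.18, limma adjusted p = 0.434) had the smallest adjusted p of the 7 genes. It was -0.45 (SE 0.17, limma adjusted p = 0.215) without Knockout 2, -0.21 without Control 6 and -0.13 (SE 0.15, limma adjusted p = 0.798) with the enterocyte score as a covariate. The probe set named for the related gene Slc28a2b averaged 3.37 ± 0.28 in knockouts and 3.57 ± 0.43 in controls (± SD, 5 arrays per group), and how far the probes tell these related genes apart was not tested.

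Ada (probe set 17394063) encodes adenosine deaminase, which turns adenosine into inosine. Its log2 intensities were 11.30, 12.12, 11.33, 12.00 and 11.41 in knockouts, against 12.24, 11.70, 11.97, 11.65 and 11.68 in controls. Knockouts 1, 3 and 5 lay below every control, and Knockouts 2 and 4 lay inside the control range. The difference of the means was -0.22 log2 units (SE 0.18, limma adjusted p = 0.645). It was -0.34 without Knockout 2 and -0.12 without Control 6.

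Pnp (probe set 17299551), the purine nucleoside phosphorylase that splits inosine and guanosine, had log2 intensities of 5.48, 6.01, 5.91, 5.82 and 5.81 in knockouts, against 5.79, 5.33, 5.58, 5.88 and 5.89 in controls. These values lay near the median of the arrays, and the low arrays, Knockout 1 and Control 7, came from different groups. Their difference was 0.11 log2 units (SE 0.13, limma adjusted p = 0.749), and it was 0.19 without Knockout 1 and 0.021 without Control 7. The probe set named for Pnp2, a close copy of Pnp in the mouse, averaged 9.13 ± 0.18 in knockouts and 9.05 ± 0.31 in controls (± SD, 5 arrays per group; log2 fold change 0.08, SE 0.15). Because probes may not separate these copies, the value of each is uncertain.

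Xdh (probe set 17347163) encodes xanthine dehydrogenase, which makes xanthine and then urate. Its log2 intensities were 11.02, 11.58, 10.73, 11.28 and 10.80 in knockouts, against 11.75, 11.08, 11.33, 10.68 and 10.71 in controls. All 5 knockouts lay inside the control range. Between the means there was a difference of -0.03 log2 units (SE 0.22, limma adjusted p = 0.971), with a 95% interval of -0.51 to 0.45, and its sign turned under 7 of 23 alternative settings.

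**Figure D2:**
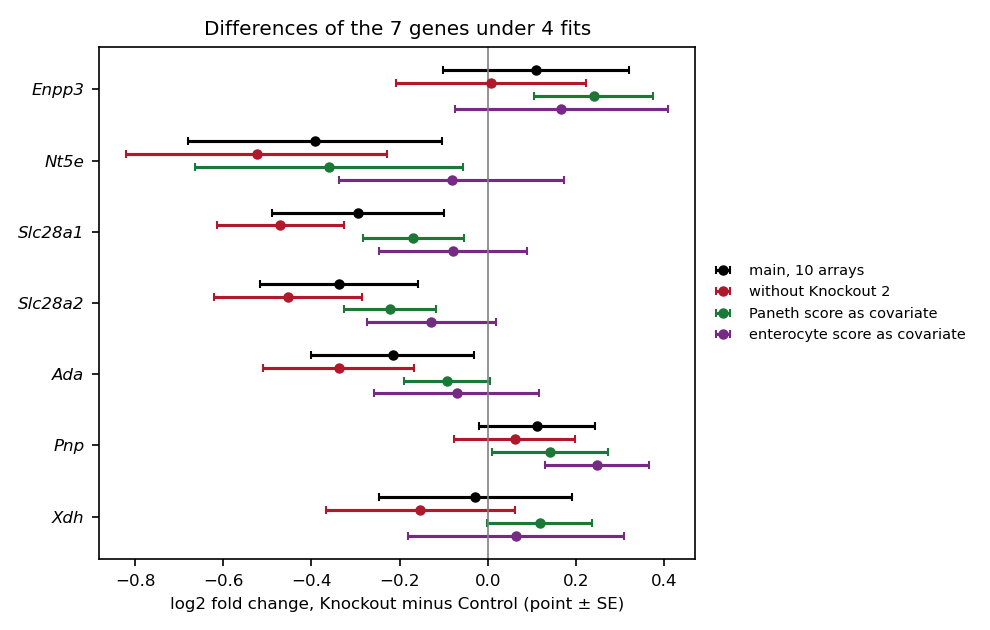
Log2 fold change (x axis, knockout minus control, point ± SE) of the 7 genes with all 10 arrays, without Knockout 2, and with the Paneth cell or enterocyte score as a covariate. Slc28a1, for example, is at -0.29 with all arrays, -0.47 without Knockout 2, -0.17 with the Paneth score and -0.08 with the enterocyte score.

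Variation among arrays of the same genotype was wide for most of these genes, and its direction was shared more among knockouts than among controls. Knockout 5, Control 8 and Control 9 each had 3 genes above their group mean and 4 below. Knockout 2 was the highest knockout for all 7 genes, and Knockouts 2 and 4 were above the knockout mean for all 7. Knockout 1 was below that mean for all 7 and was the lowest knockout for 5, the exceptions being Xdh and Enpp3, which were lowest on Knockout 3. Among controls, Control 6 was highest for Enpp3, Slc28a1, Slc28a2, Ada and Xdh, whereas Nt5e was highest on Control 9 and Pnp on Control 10. The within-group SD of Nt5e, Ada, Xdh, Slc28a1, Slc28a2 and Enpp3 exceeded that of 86.9% to 97.4% of genes within 0.5 log2 units of each, and that of Pnp exceeded 63.5%. The SE of the differences was 0.13 to 0.29, beside a median of 0.12 over all genes.

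The arrays highest in Ada, Xdh and Enpp3 were also the highest in alkaline phosphatases of the brush border. Knockouts 2 and 4 and Controls 6 and 8 were the highest arrays of their groups for these 3 genes, for guanine deaminase (Gda), for intestinal alkaline phosphatase (Alpi) and for Akp3, the alkaline phosphatase of the mouse duodenum. Not every brush border gene had this order, as the peptidase gene Dpp4 was highest on Knockout 5 (12.32) and Control 10 (12.44). Relative to group means, the enterocyte score was 0.146, -0.014, 0.046 and 0.006 on Knockouts 2 and 4 and Controls 6 and 8. Akp3 had log2 intensities of 6.61, 9.41, 7.15, 8.89 and 7.83 in knockouts, against 11.56, 7.33, 10.07, 6.85 and 7.07 in controls. Its values spread far more within each group than the difference between the group means, -0.60 on the log2 scale (SE 0.89, limma adjusted p = 0.808). The part of this spread in the differences of Ada, Xdh and Enpp3 was not tested.

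Paneth markers moved the other way. Relative to its own group mean, the Paneth cell score was -1.57 on Knockout 2 and -1.28 on Control 6, the arrays where Xdh lay 0.50 and 0.64 above its group means. With the Paneth score as a covariate the SE was lower for 5 genes, at 0.12 for Xdh, against 0.22 without it, and 0.10 for Slc28a2, against 0.18. It was 0.30 for Nt5e, against 0.29 without the covariate, and 0.13 for Pnp in both fits. In that fit the log2 fold changes were -0.22 for Slc28a2 (limma adjusted p = 0.347), -0.17 for Slc28a1 (adjusted p = 0.526), -0.09 for Ada (adjusted p = 0.701), 0.12 for Xdh (adjusted p = 0.684), 0.24 for Enpp3 (adjusted p = 0.438), -0.36 for Nt5e (adjusted p = 0.617) and 0.14 for Pnp (adjusted p = 0.652). None of the 7 genes passed, while 0.983% of all genes did, and 3 other genes of nucleotide handling were called higher, Uck2, Adsl and Cad, as were 0.766% of all genes.

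No marker of the villus tip or of enterocytes was called between the groups. The villus tip score, over 12 markers that leave out the 7 genes, averaged 10.37 ± 0.09 in knockouts and 10.49 ± 0.14 in controls (± SD, 5 arrays per group), and 10 of the 12 markers had negative differences. Relative to group means, the tip score was 0.11, -0.14, 0.18 and -0.06 on Knockouts 2 and 4 and Controls 6 and 8. The score of 9 lower villus markers was 0.22, 0.30, 0.02 and 0.35 on those arrays, and 0.42 on Control 7. It averaged 10.84 ± 0.28 in knockouts and 10.64 ± 0.39 in controls (± SD, 5 arrays per group). Of these markers 4 were higher at an unadjusted limma p under 0.05, against 8.29% of all genes, and none was called. With the enterocyte score as a covariate the log2 fold changes were -0.08 for Nt5e, -0.08 for Slc28a1, -0.13 for Slc28a2 and -0.07 for Ada, each closer to 0 than without the covariate. Those of Pnp and Enpp3 lay farther from 0, at 0.25 against 0.11 and at 0.17 against 0.11, and that of Xdh was 0.065 against -0.03. In whole tissue, fewer cells of a type and less RNA per cell cannot be told apart. For scale, the scores of cells that can also express Nt5e or Ada were 6.87 ± 0.51 in knockouts and 6.92 ± 0.41 in controls for 8 T cell markers, and 6.77 ± 0.33 in knockouts and 6.21 ± 0.41 in controls for 6 endothelial markers (± SD, 5 arrays per group). Within groups the T cell score was highest on Knockout 2 and Control 6, at 0.71 and 0.46 relative to the mean of all arrays. The T cell score was lowest on Knockout 3 and Control 10, at -0.71 and -0.44. Scores of 6 fibroblast markers were 7.30 ± 0.51 in knockouts and 6.82 ± 0.61 in controls (± SD, 5 arrays per group). Those of 6 B and plasma cell markers were 6.07 ± 0.17 in knockouts and 6.52 ± 0.87 in controls. The part of these cell types in the values of Nt5e and Ada was not tested.

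**Figure D3:**
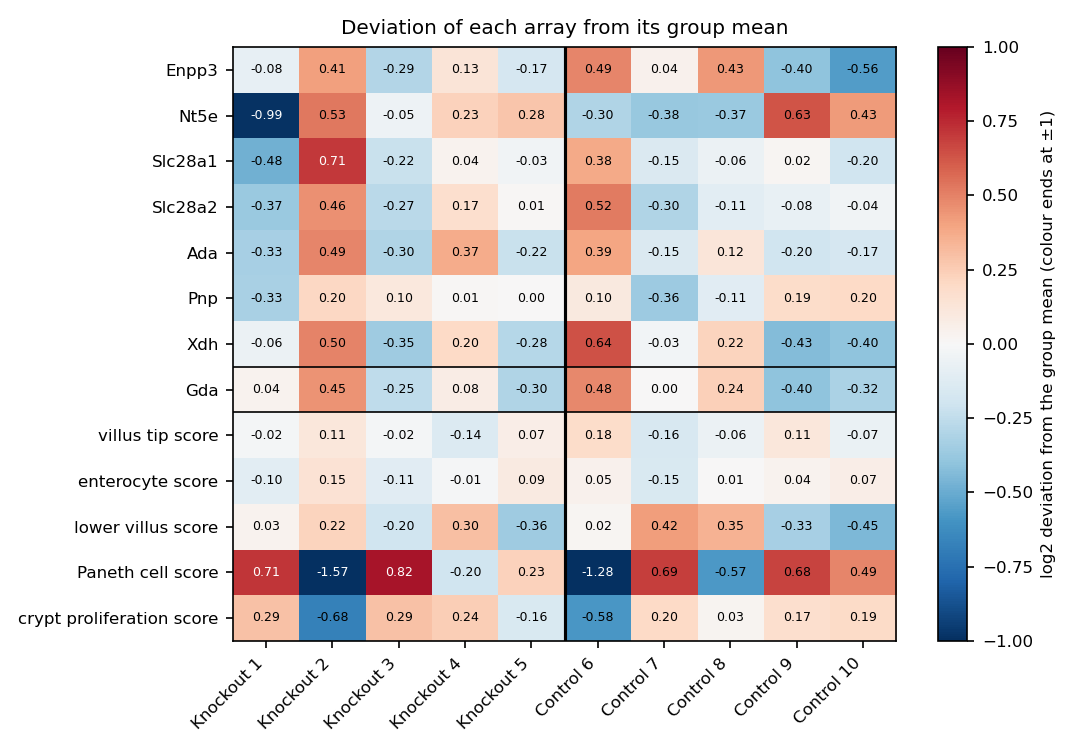
Deviation of each array (columns) from its own group mean, in log2 units, for the 7 genes, Gda and 5 marker scores (rows), with colour ending at ±1. Knockout 2 is above its group mean for all 7 genes while its Paneth score is at -1.57, and Control 6 is above for 6 of 7 with a Paneth score of -1.28.

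Likeness between genes was measured as Pearson's r over the 10 arrays after each group's mean was subtracted. The genes compared had a mean log2 intensity of at least 6. Likeness describes variation that genes share within groups, and whether tissue make-up underlies that variation was not tested. The gene most like Xdh was Gda (r = 0.983), whose product makes xanthine, the substrate of Xdh, from guanine. Gda had log2 intensities of 11.97, 12.38, 11.68, 12.01 and 11.63 in knockouts, against 12.38, 11.90, 12.14, 11.50 and 11.58 in controls, with a difference of 0.03 log2 units (SE 0.19, limma adjusted p = 0.956). The genes most like Enpp3 were Arl15 (0.991), Ap1s3 (0.984) and Plac8 (0.983). Those most like the transporters were Ing4 (0.985), Abi3 (0.979) and Crim1 (0.970) for Slc28a1, and Sidt2 (0.983), Pxdc1 (0.977) and Gtpbp2 (0.965) for Slc28a2. Ada was most like the zinc transporter gene Slc39a14 (0.975), then Prrx1 (0.974) and Tbcel (0.969). Nt5e was most like Pheta1 (0.951), Zfyve21 (0.950) and Btbd6 (0.937), and Pnp was most like Bloc1s3 (0.973), Pik3r2 (0.968) and Lrsam1 (0.953). After Gda, Xdh was most like Zfp410 (0.972) and Tmem189 (0.970). None of these genes was called between the groups.

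Beyond the 7 genes, 82 genes of nucleotide handling and synthesis were measured of 96 listed, the others not being analysed here, and none was called over all genes with all arrays and no covariate. At an unadjusted p under 0.05, 18 were higher and 4 lower in knockouts, against 8.29% higher and 5.56% lower of all genes.

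The third concentrative transporter, Slc28a3, which carries purine and pyrimidine nucleosides alike, differed in sign from Slc28a1 and Slc28a2. Its log2 intensities were 9.06, 8.50, 8.85, 8.55 and 8.57 in knockouts, against 7.93, 8.34, 8.37, 8.27 and 8.06 in controls. Every knockout lay above every control, as was the case for 1.64% of all genes. Their means differed by 0.51 log2 units (SE 0.13, limma adjusted p = 0.147), which did not pass. The differences between the 3 transporters were not tested against each other.

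In the list of nucleoside, nucleobase and urate transport, 5 of 12 differences were positive and 7 negative, with a median of -0.04. Slc43a3, a purine nucleobase transporter described in human cells, was at 0.77 (SE 0.29, limma adjusted p = 0.273), Slc23a4, a nucleobase transporter described in rat, at -0.37 (SE 0.15, adjusted p = 0.297) and the urate transporter Slc2a9 at -0.27 (SE 0.11, adjusted p = 0.298). The equilibrative transporter Slc29a1 was at 0.18 (SE 0.18, adjusted p = 0.701).

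No other gene of purine salvage and breakdown was called, with all arrays or under the 23 alternative settings. Of 24 measured members 15 had positive and 9 negative differences (median 0.03). Mtap, which recovers adenine from methylthioadenosine, was at 0.49 (SE 0.16, limma adjusted p = 0.209), Lacc1, a purine-handling enzyme of mouse macrophages, at 0.39 (SE 0.13, adjusted p = 0.205) and deoxycytidine kinase Dck at 0.24 (SE 0.11, adjusted p = 0.356). Itpa, which clears inosine triphosphate, was at 0.16 (SE 0.09, adjusted p = 0.452). The core salvage enzymes lay close to 0, with the adenosine kinase Adk at 0.02 (SE 0.11), Hprt, which salvages hypoxanthine and guanine, at 0.14 (SE 0.11), and Aprt, which salvages adenine, at -0.05 (SE 0.09).

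In the list of ectonucleotidases and adenosine receptors, 13 of 21 entries were measured, with 4 positive and 9 negative differences (median -0.04). The apyrases Entpd7 and Entpd6 were at -0.21 (SE 0.10, limma adjusted p = 0.384) and 0.20 (SE 0.10, adjusted p = 0.418), and Entpd3 was at -0.10 (SE 0.12). Dpp4, the brush border peptidase to which adenosine deaminase binds in humans, was at -0.03 (SE 0.10).

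In the list of pyrimidine salvage and breakdown 7 of 16 differences were positive (median -0.02). Cytidine deaminase Cda was at -0.28 (SE 0.11, limma adjusted p = 0.297) and the uridine phosphorylase Upp2 at -0.28 (SE 0.12, adjusted p = 0.326). Upp2 had a low mean log2 intensity of 3.91, below the lowest array median of 5.77. The kinases Dtymk and Uck2, which make dTDP and UMP or CMP, were at 0.59 (SE 0.17, adjusted p = 0.182) and 0.58 (SE 0.21, adjusted p = 0.253). With the Paneth score as a covariate Uck2 was called, at 0.42 (SE 0.08, limma adjusted p = 0.0370).

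Positive differences were most frequent in the synthesis lists. In purine synthesis all 11 measured members had one (median 0.41), 7 of them at an unadjusted p under 0.05. In pyrimidine synthesis 5 of 6 did (median 0.35), 2 of them at that level. Over all genes, 53.2% had a negative difference, and 8.29% were higher at that level. No member of either list was called with all arrays and no covariate. With the enterocyte score as a covariate the medians were lower, at 0.25 for purine synthesis and 0.17 for pyrimidine synthesis, and no member was called. Cad, which starts pyrimidine synthesis, had log2 intensities of 7.34, 6.54, 7.36, 7.11 and 6.79 in knockouts, against 6.18, 6.46, 6.27, 6.57 and 6.56 in controls, with a difference of 0.62 log2 units (SE 0.16, limma adjusted p = 0.147). Knockout 2 lay below Controls 9 and 10, and the other knockouts lay above every control. Gart, which carries out several steps of purine synthesis, was at 0.61 (SE 0.21, adjusted p = 0.226), adenylosuccinate lyase Adsl at 0.49 (SE 0.14, adjusted p = 0.171) and GMP synthetase Gmps at 0.41 (SE 0.13, adjusted p = 0.210). The muscle-type adenylosuccinate synthetase Adssl1 was at 0.33 (SE 0.12, adjusted p = 0.250), thymidylate synthase Tyms at 0.53 (SE 0.21, adjusted p = 0.284), Umps at 0.28 (SE 0.13, adjusted p = 0.367) and Dhodh at 0.22 (SE 0.11, adjusted p = 0.413). Adssl1 had a low mean log2 intensity of 4.69, below the lowest array median of 5.77.

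With all arrays and the Paneth score as a covariate, Adsl (0.41, SE 0.08, limma adjusted p = 0.0492) and Cad (0.52, SE 0.10, limma adjusted p = 0.0453) were called higher. Without Knockout 2, the purine synthesis genes Gart, Adsl and Atic and the pyrimidine synthesis genes Cad and Tyms were called higher, where 1.78% of all genes were, and 0 of the 7 salvage genes were called. Adsl was then at 0.61 (SE 0.11, limma adjusted p = 0.0269) and Cad at 0.74 (SE 0.14, limma adjusted p = 0.0274). Knockout 2 was the lowest knockout for Gart (7.30), Adsl (7.23), Cad (6.54) and Tyms (6.95). Leaving it out therefore raised their differences by construction, and these calls are no independent result. Each synthesis list had called members in 3 of the 23 alternative settings and in none of the others. The same 5 synthesis genes were called higher without Knockout 2 and Control 6 together, against 1.3% of all genes, and again none of the 7 salvage genes, where 1.47% of all genes were called in either direction. The score of 9 crypt proliferation markers moved with the synthesis genes, at 8.40 ± 0.42 in knockouts and 7.56 ± 0.33 in controls (± SD, 5 arrays per group), and 9 of 9 of these markers had positive differences, none of them called with all arrays and no covariate. In the fits that called synthesis genes, markers of proliferation were called higher too, 8 of 9 without Knockout 2, 8 of 9 without Knockout 2 and Control 6 together and 4 of 9 with the Paneth score. Knockout 2 had the lowest proliferation score of the knockouts, at -0.26 relative to the mean of all arrays, against 0.26 to 0.71 on the other knockouts and at most -0.22 on the controls. Its part in the values of the synthesis genes was not tested, and salvage and synthesis lists were not tested against each other.

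**Figure D4:**
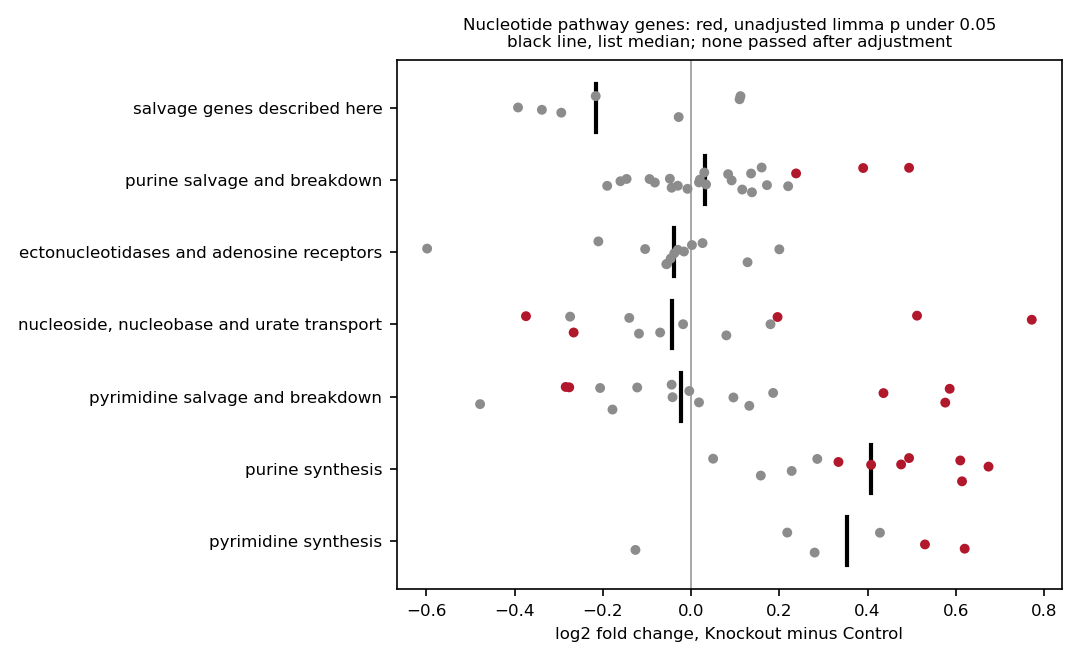
Log2 fold change (x axis, knockout minus control) of each measured gene in the salvage set and 6 nucleotide pathway lists (y axis), with red points at an unadjusted limma p under 0.05 and black lines at list medians. The medians are -0.22 for the 7 salvage genes, 0.41 for purine synthesis and 0.35 for pyrimidine synthesis, and none of the genes passed after adjustment in this fit, which has all arrays and no covariate.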

How the data were processed

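RNA of 10 jejunum samples was measured on Affymetrix whole-transcript arrays. Per the submitters' processing notes, the authors ran RMA, which corrects background, equalises arrays and summarises probes, and used Affymetrix Expression Console (version 1.4.1.46). The deposited intensities were on the linear scale, from 1.88 to 15500.2. Genome build and detection calls are not given in the sources used here. Log2 was taken, the design having left the scale open, and all log2 values fell on steps of 0.01. Of 34472 probe sets, those with 1 gene symbol (23521) were kept, with the highest mean per gene, leaving 22180 genes. Groups came from the titles, which the genotype labels match; the source labels describe both groups, controls included, as lacking phosphatidylcholine synthesis. Knockout minus control was fitted with limma 3.58.1 in R 4.3.3 (lmFit, eBayes, two-sided), with Benjamini-Hochberg adjustment over all genes and calls under 0.05. The fit was tested on simulated data. Members, lists and tests were chosen with earlier results of these data known. Named genes are the 7 members, Pcyt1a, up to 4 genes per pathway list with the smallest unadjusted p, and 3 genes per member by likeness; Pnp2, Slc28a2b, Slc29a1, Adk, Hprt, Aprt, Alpi, Dpp4 and Atic were named after their values were seen. Alternatives changed the normalization, intensity filter, variance model, weights, probe set choice, covariates and arrays; those without Knockout 2 and Control 6 together, and list counts and medians under alternatives, were added after seeing the data. Arrays have no read depth, and precision is limited by their number.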

Additional observations from a re-analysis of the deposited data

How the results depend on the processing

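None of the 7 genes was called under any of the 23 alternative settings, of which the removal of Knockout 2 with Control 6 was chosen after seeing the data; the lowest adjusted p was 0.124, for Slc28a1 without Knockout 2. Pnp, with a mean log2 intensity below 6, has no value under the stricter intensity filter. Nt5e, Ada, Pnp, Slc28a1 and Slc28a2 kept the sign of their difference. Xdh turned to 0.12 with the Paneth cell score, 0.065 with the enterocyte score and 0.0075 without Knockout 2 and Control 6, and ranged from -0.15 to 0.13 with 1 array left out. Enpp3 ranged from -0.03 to 0.23, Ada from -0.34 to -0.12 and Pnp from 0.021 to 0.19 with 1 array left out. The cause was not tested. Medians of the synthesis lists ran from 0.25 to 0.51 (purine) and from 0.17 to 0.48 (pyrimidine), lowest with the enterocyte covariate and highest without Knockout 2.

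Over all genes, 6 were called with all arrays. The count was 2 with median centring, with a further quantile normalization, with the enterocyte covariate, and when the 3 arrays richest in smooth muscle markers were left out. It was 218 with the Paneth score (170 higher and 48 lower) and 326 without Knockout 2 and Control 6 (289 higher and 37 lower). With 1 array left out it ranged from 2 to 452, and 452 was the count without Knockout 2 (395 higher and 57 lower). No paired analysis was possible because the groups share no replicate numbers.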
